A study of Homo sapiens with 6 samples.

Results

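The surface antigens of B-cell acute lymphocytic leukemia (B-ALL) examined here were 9 genes, CD22, TNFRSF13C, CD38, MME, CD24, CD52, MS4A1, CD9 and CD34. They were matched by gene symbol in a deposited table of expression levels and by Ensembl ID in a deposited table of counts, which holds 57905 genes. Of these 9 genes, 8 had an ID of their own in the count table and 7 were present in both tables. Each of the 8 genes passed a filter on low counts that kept 16622 genes for testing. CD24 was the exception, and the counts of an annotated copy of it are given in its place.

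Antibodies, antibody-drug conjugates and engineered T cells find a leukemic cell through proteins on its surface. CD22, CD20 (the product of MS4A1), CD38, CD52 and the BAFF receptor (the product of TNFRSF13C) have all been used as such handles on B-lineage cells. The same surface proteins are read by flow cytometry to place a blast along B cell development and to follow residual disease, with CD34 on early progenitors, CD10 (the product of MME) on common B-ALL blasts, and CD20 on later stages. What was measured here is RNA, and the amount of protein on the surface was not measured.

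NALM6 (Nalm6 in the labels) is a cell line that grew from the B cell precursor leukemia of a patient, and THZ1 binds covalently to cyclin-dependent kinase 7 (CDK7), a kinase that acts on RNA polymerase II and on other cyclin-dependent kinases. RNA-SEQ libraries were made from the total RNA of NALM6 cells treated for 24 h with the solvent DMSO (3 libraries) or with 500 nM of THZ1 (3 libraries). Both groups are the same line, so 1 line, 1 dose and 1 time stand behind every value. No label says that the libraries of a treatment came from separate cultures, so the p-values measure the spread between these libraries, which may be technical.

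Total counts ran from 11015480 to 11164840 in the DMSO-treated and from 7876402 to 8314306 in the THZ1-treated libraries. A floor of 3 counts in a library corresponded to 0.246 to 0.253 CPM (counts per 1000000 of a library's size after TMM scaling, which is not the plain share of its counts) with DMSO and to 0.394 to 0.415 CPM with THZ1. All 10 B lineage markers looked at, among them CD79A, CD79B and PAX5, were detected, and their summed level was 3365 to 3612 CPM with DMSO and 1794 to 1830 CPM with THZ1. Of the 10 markers, 7 were lower after THZ1 treatment, where 41.1% of all genes tested were lower, and 2 were higher, where 43.5% were. T cell markers summed to 0.08 to 0.42 CPM with DMSO and to 1.34 to 1.94 CPM with THZ1, with CD8A at 0 in each library. NK cell markers summed to 7.09 to 8.85 CPM with DMSO and 8.96 to 14.0 CPM with THZ1, with NCAM1, KLRD1 and NCR1 at 0. Most of that sum was NKG7 (8.07 and 11.4 CPM). Myeloid markers summed to 12.9 to 14.6 CPM and 23.3 to 25.3 CPM, with S100A8 at 0. Of 6 myeloid markers tested, 3 (50%) were higher, namely CD14 (0.64 to 8.7 CPM), CSF1R and CSF3R. CSF1R and CSF3R were at or under 3 counts in each DMSO-treated library. A further 2 (33.3%) were lower, among them CD33 (9.57 to 2.19 CPM), and 1 did not pass. Erythroid and platelet markers summed to 1.94 to 2.56 CPM and 6.84 to 7.35 CPM, with PF4 at 0. The 2 of them tested were higher, ITGA2B (2.04 to 3.59 CPM) and ALAS2. ALAS2 was at or under 3 counts in each DMSO-treated library and at 3.09 CPM with THZ1. Stromal and endothelial markers, most of it COL1A1, summed to 3.44 to 4.80 CPM and 15.9 to 16.5 CPM. The part of these markers in the results below was not tested. In a bulk library, fewer cells with a transcript and less of it per cell cannot be told apart, and a CPM value is relative to the other genes of a library, not an amount per cell.

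The promoter windows of CD38 and CD22 are shown because these genes had the largest decreases among the surface antigens. The windows are from RefSeq (GRCh38.p14), run 5′ to 3′ from 250 bases before to 50 bases after the annotated start, and lie on the plus strand at chr4:15778078-15778377 for CD38 and at chr19:35328937-35329236 for CD22. Capitals mark matches to the motifs searched.
CD38: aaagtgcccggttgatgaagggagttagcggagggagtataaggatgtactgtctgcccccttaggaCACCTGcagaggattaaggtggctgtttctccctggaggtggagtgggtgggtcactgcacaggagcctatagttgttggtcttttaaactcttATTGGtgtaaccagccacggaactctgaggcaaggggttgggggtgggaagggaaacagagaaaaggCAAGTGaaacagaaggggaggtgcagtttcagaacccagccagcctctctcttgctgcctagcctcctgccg
CD22: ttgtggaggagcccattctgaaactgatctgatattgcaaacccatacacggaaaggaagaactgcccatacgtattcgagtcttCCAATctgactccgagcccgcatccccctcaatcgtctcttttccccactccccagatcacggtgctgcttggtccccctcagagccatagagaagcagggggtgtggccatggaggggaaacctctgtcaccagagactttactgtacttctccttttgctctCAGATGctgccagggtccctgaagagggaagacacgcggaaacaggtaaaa
The motifs searched on both strands were TATAAA, the E-boxes CACGTG and CANNTG (the first is one form of the second), GAGGAA (a core of ETS factor sites), CCAAT and GGGCGG (the GC box). In the CD38 window, the capitals are an E-box whose first base lies at −183 from the start (CACCTG). Then follow the CCAAT box on the opposite strand, which reads ATTGG here and begins at −89, and a further E-box at −22 (CAAGTG). In the CD22 window they are CCAAT at −165 and an E-box at −1 (CAGATG). Of all 35116 windows in the RefSeq table, 68.7% hold CANNTG, 34.6% CCAAT, 45.0% GGGCGG, 27.9% GAGGAA, 11.5% TATAAA and 7.26% CACGTG. GC content was 54.0% in the CD38 window and 53.0% in the CD22 window, against a median of 58.7% over all windows (quartiles 47.0% and 68.0%). The table gave 15 windows for 7 of the 9 genes, of which 10 held CANNTG, 8 GGGCGG, 5 CCAAT, 4 GAGGAA and 0 each TATAAA and CACGTG. MS4A1 and TNFRSF13C were not in the table.

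The comparison asked how the transcripts of the antigens changed with THZ1 treatment. CD38 and CD22 fell to 9.84% and 17.0% of their DMSO level, MME fell to 60.8%, and MS4A1 and TNFRSF13C rose 5.77-fold and 2.29-fold. CD9, CD34 and CD52 did not pass the test. Thus, at an adjusted p below 0.05 by edgeR's quasi-likelihood test, 2 of the 8 tested antigens were higher, where 43.5% of all genes tested were higher, and 3 were lower, where 41.1% of all genes were lower. In either direction 84.5% of all genes passed. When a change of 1.5 or more on the log2 scale was required in addition, 37.5% of all genes passed. Of the antigens, MS4A1 was then called higher (24.6% of all genes) and CD38 and CD22 lower (12.9% of all genes). The 3 libraries of each treatment did not overlap in 6 of the 8 genes, against 84.7% of all genes tested. Between this fit and the alternatives, among them the deposited expression levels, the log2 fold change of a gene shifted by a median of −0.31 to 0.19. A value of that size or less therefore does not fix a direction.

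**Figure D1:**
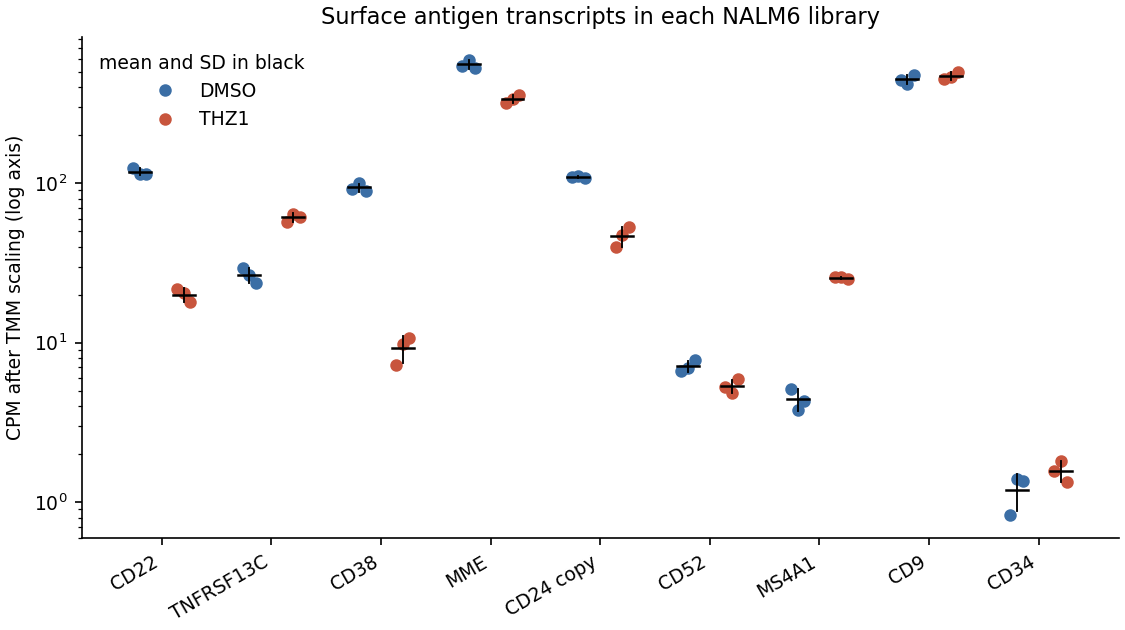
Level of each surface antigen transcript in CPM after TMM scaling (log axis) in the 3 DMSO-treated and 3 THZ1-treated libraries, with points for libraries, black horizontal lines for means and black vertical lines for SD. The treatments are fully separated for CD22, TNFRSF13C, CD38, MME, the CD24 copy, CD52 and MS4A1, and they overlap for CD9 and CD34.

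CD22 is a sialic acid-binding lectin that recruits the phosphatase SHP-1 and restrains B cell receptor signaling, and it is the target of inotuzumab ozogamicin. The gene (ENSG00000012124) spans chr19:35810164-35838264 on the plus strand of GRCh37, and it shares 26 exon bases with the microRNA gene MIR5196 and 15 with the long noncoding RNA gene ENSG00000269553, both on the same strand. With DMSO the 3 libraries held 1509, 1402 and 1356 counts of CD22, and with THZ1 they held 166, 147 and 134. Every THZ1-treated library was thus far under every DMSO-treated library. The mean level fell from 118 CPM ± 5.83 (SD, n = 3) to 20.0 CPM ± 1.98 (n = 3). The log2 fold change was −2.56 (SE 0.09, 95% confidence interval −2.75 to −2.37, adjusted p = 1.58e-21 by edgeR). Only 3.12% of all genes tested had a lower log2 fold change.

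CD22 acts with a set of partner proteins and with enzymes that make or edit its sialic acid ligands, and of 13 such genes tested 10 were lower, 2 were higher and 1 did not pass (median log2 fold change −0.93, against 0.03 over all genes tested). Among the 13, 76.9% were lower and 15.4% higher, against 41.1% and 43.5% of all genes tested. The lowest was ST6GAL1, the sialyltransferase that makes the α2,6-linked sialic acid that CD22 binds, which fell from 103 CPM ± 3.84 to 17.1 CPM ± 1.68 (log2 fold change −2.60, adjusted p = 2.14e-21). CMAS, which activates sialic acid for transfer, fell by 2.02 on the log2 scale, and GNE, the first enzyme of sialic acid synthesis, fell by 0.53. SIAE, the esterase that removes acetyl groups from sialic acid, was at 28.1 CPM ± 3.52 and 26.2 CPM ± 1.35 and did not pass (adjusted p = 0.381). PTPN6, which encodes SHP-1, had the highest mean CPM over both treatments together, at 227 CPM ± 13.0 with DMSO and 135 CPM ± 0.61 with THZ1 (log2 fold change −0.75). The kinases LYN and SYK fell (log2 fold changes −1.54 and −1.78), as did the adaptor BLNK (−2.05). The other adaptors GRB2 and SHC1 rose, by log2 fold changes of 0.97 and 1.63.

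TNFRSF13C encodes the BAFF receptor, through which the cytokine BAFF keeps B cells alive by way of the noncanonical NF-κB pathway. The gene (ENSG00000159958) lies on chr22:42318036-42322810 on the minus strand of GRCh37, and 76 of its exon bases are shared with the microRNA gene MIR378I on the same strand. TNFRSF13C had 357, 325 and 280 counts in the DMSO-treated libraries and 432, 465 and 460 in the THZ1-treated libraries. The raw counts were thus higher after THZ1 treatment even though those libraries were shallower. The mean level rose from 26.6 CPM ± 2.94 (SD, n = 3) to 60.9 CPM ± 3.82 (n = 3), a log2 fold change of 1.19 (SE 0.10, 95% confidence interval 0.99 to 1.39, adjusted p = 9.24e-13). Of all genes tested, 72.0% had a lower log2 fold change.

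Among 10 tested genes of the BAFF and APRIL system, which holds the ligands, the sister receptors and the noncanonical NF-κB cascade, 3 (30%) were higher, 5 (50%) were lower and 2 did not pass (median log2 fold change −0.81). Over all genes tested, 43.5% were higher and 41.1% lower, and the median was 0.03. The highest was the APRIL gene TNFSF13, from 1.49 CPM ± 0.15 to 9.68 CPM ± 3.09 (log2 fold change 2.69), and the lowest was TNFRSF13B, the receptor TACI, from 2.11 CPM ± 0.64 to 0.35 CPM ± 0.27 (log2 fold change −2.51). The THZ1 mean of TNFRSF13B lay under the floor of 3 counts in those libraries (0.394 to 0.415 CPM), so the size of its decrease is uncertain. TNFSF13B, which encodes BAFF itself, was at 1.25 CPM ± 0.22 and 0.59 CPM ± 0.63 and did not pass (adjusted p = 0.0633). TRAF3 and TRAF2, which hold the cascade in check, fell (log2 fold changes −2.06 and −1.25), and BIRC2, which acts with them, rose by 1.62. MAP3K14, the kinase NIK that these proteins degrade, fell by 1.16. CHUK, the kinase downstream of NIK, which had the highest mean CPM of the list over both treatments together, was at 49.8 CPM ± 2.57 and 48.7 CPM ± 1.61 and did not pass (adjusted p = 0.737). RELB rose by 1.59 and its partner NFKB2 fell by 0.55.

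CD38 is an ectoenzyme that consumes NAD to make cyclic ADP-ribose, and it is the target of daratumumab. The gene (ENSG00000004468) spans chr4:15779898-15854855 on the plus strand of GRCh37, and no other annotated gene overlaps it. CD38 had 1119, 1219 and 1060 counts in the DMSO-treated libraries and 55, 71 and 80 in the THZ1-treated libraries. This was the largest decrease among the antigens, and the highest THZ1-treated library was well under the lowest DMSO-treated library. The mean level fell from 94.0 CPM ± 5.38 (SD, n = 3) to 9.25 CPM ± 1.80 (n = 3), a 10.2-fold decrease (log2 fold change −3.34, SE 0.12, 95% confidence interval −3.58 to −3.11, adjusted p = 3.11e-22). Only 1.15% of all genes tested had a lower log2 fold change. The spread relative to the mean was 5.72% with DMSO and 19.5% with THZ1, where the counts were low. With limma on FPKM, the log2 fold change of CD38 was −3.56 at a pseudocount of 1 and −3.99 at 0.1.

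Of 12 genes of NAD and nucleotide metabolism around CD38, 8 were tested, of which 1 (12.5%) was higher, 5 (62.5%) were lower and 2 did not pass (median log2 fold change −1.45). Over all genes tested, 43.5% were higher and 41.1% lower, and the median was 0.03. TRPM2, a calcium channel that ADP-ribose opens, was the lowest and fell from 236 CPM ± 4.80 to 36.9 CPM ± 0.90 (log2 fold change −2.67). ADA, which deaminates adenosine, and ENTPD1 (CD39), which breaks down extracellular ATP, fell (log2 fold changes −2.62 and −1.70). NAMPT, the rate-limiting enzyme of NAD salvage, fell by 1.79, whereas NADK, which phosphorylates NAD, was the highest and rose by 1.52. PARP1, a consumer of nuclear NAD, had the highest mean CPM, at 926 CPM ± 7.60 and 868 CPM ± 28.7, and did not pass (adjusted p = 0.181). BST1, the paralog of CD38, had at most 1 count in a library.

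MME encodes CD10, the common ALL antigen, a neutral endopeptidase that cleaves peptides outside the cell. The gene (ENSG00000196549) spans chr3:154741913-154901493 on the plus strand of GRCh37, and 214 of its exon bases are shared with the antisense gene MME-AS1, from which its reads cannot be told apart where counting does not use strand. MME had 6599, 7266 and 6261 counts with DMSO and 2430, 2439 and 2682 with THZ1. The treatments did not overlap, and MME was still among the more abundant transcripts after treatment. The mean level fell from 557 CPM ± 34.9 (SD, n = 3) to 339 CPM ± 19.5 (n = 3), a log2 fold change of −0.72 (SE 0.07, 95% confidence interval −0.86 to −0.58, adjusted p = 4.94e-11). Of all genes tested, 29.6% had a lower log2 fold change.

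Of 7 other cell surface peptidases tested, 3 (42.9%) were higher and 4 (57.1%) were lower, against 43.5% and 41.1% of all genes (median log2 fold change −0.24). The highest was ECE1, endothelin-converting enzyme and a relative of MME, from 8.16 CPM ± 0.49 to 15.4 CPM ± 1.63 (log2 fold change 0.92). ENPEP, aminopeptidase A, was the lowest, at 2.74 CPM ± 0.82 with DMSO and at or under 3 counts in each THZ1-treated library, which makes it at least 6.78-fold lower against that floor. The sheddase ADAM10, first by the mean CPM of both treatments together, fell by 1.44 on the log2 scale, while its relative ADAM17 rose by 0.34. The gene of carboxypeptidase M fell by 2.05.

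CD24 and CD52 are small glycoproteins held in the membrane by a GPI anchor. CD24 had no entry in the annotation at hand and none by symbol in either table. Of the 3 RefSeq windows of CD24, which lie on chromosome 6 of GRCh38.p14, none matched chromosome 6 of GRCh37, while 2 matched chromosome Y, 1 of them over its 300 bases at 98.3% identity. Beside these matches, 155 bases from the nearer one, the annotation has CD24P4 (ENSG00000185275), a processed pseudogene on chrY:21154353-21154595, minus strand. Its own identity to the CD24 transcript was not measured, and whether its counts are reads of CD24 was not tested, so they are given only as those of the copy. The copy had 1312, 1344 and 1275 counts with DMSO and 301, 344 and 395 with THZ1. No value of either treatment reached the other. The level fell from 109 CPM ± 1.30 (SD, n = 3) to 46.7 CPM ± 6.66 (n = 3), a log2 fold change of −1.22 (SE 0.09, 95% confidence interval −1.40 to −1.04, adjusted p = 5.06e-14). The 3 other annotated copies held at most 4 counts in a library.

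CD52, the target of alemtuzumab, is a short peptide whose sugars make up most of its mass. The gene (ENSG00000169442) lies on chr1:26644449-26647014 on the plus strand of GRCh37 and shares 25 exon bases with UBXN11 on the opposite strand. CD52 had 80, 85 and 92 counts in the DMSO-treated libraries and 40, 35 and 44 in the THZ1-treated libraries. Although the treatments did not overlap, at 7.12 CPM ± 0.59 (SD, n = 3) and 5.33 CPM ± 0.52 (n = 3), the difference did not pass the test (log2 fold change −0.41, SE 0.20, 95% confidence interval −0.81 to −0.01, adjusted p = 0.0506, unadjusted p = 0.0428 by edgeR). The call turned on the processing: CD52 passed in 8 of 16 alternatives, each time lower with THZ1, with adjusted p between 0.00212 and 0.294 over the alternatives.

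Of the 8 tested genes for other GPI-anchored proteins, 7 were lower, where 41.1% of all genes were, and 1 did not pass (median log2 fold change −1.02). CD48, a ligand of lymphocyte receptors, was the lowest, from 34.9 CPM ± 1.36 to 3.51 CPM ± 1.22 (log2 fold change −3.31). CD58, the ligand of CD2 on T cells, fell by 1.91, and the complement regulator CD55 fell by 1.21. CD59, the other complement regulator of the list, was at 7.31 CPM ± 0.99 and 6.05 CPM ± 0.49 and did not pass (adjusted p = 0.188). BST2, an antiviral tether with the highest mean CPM of the list, fell by 1.07. Of the 23 tested genes that build and attach the anchor, 10 (43.5%) were higher, 8 (34.8%) were lower and 5 did not pass, against 43.5% higher and 41.1% lower of all genes (median log2 fold change 0.07). PIGV, which adds a mannose, rose by 2.16, and PIGS, a subunit of the GPI transamidase and first by the mean CPM of both treatments together, rose from 62.9 CPM ± 2.46 to 204 CPM ± 14.1 (log2 fold change 1.70). PIGN, which modifies the first mannose, fell by 1.95, and the transamidase subunits PIGK and PIGU fell (log2 fold changes −1.79 and −1.84). Subunits of 1 enzyme complex thus moved in opposite directions.

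MS4A1 encodes CD20, a four-pass membrane protein and the target of rituximab. The gene (ENSG00000156738) lies on chr11:60223319-60238225 on the plus strand of GRCh37. MS4A1 had 62, 46 and 51 counts with DMSO and 195, 186 and 187 with THZ1. Every THZ1-treated library was thus far above every DMSO-treated library, from fewer counts in all. The mean level rose from 4.40 CPM ± 0.68 (SD, n = 3) to 25.5 CPM ± 0.40 (n = 3), a log2 fold change of 2.53 (SE 0.15, 95% confidence interval 2.22 to 2.84, adjusted p = 5e-16). This was the largest increase among the antigens, and 83.1% of all genes tested had a lower log2 fold change. It was smaller on the deposited FPKM values, where limma gave 1.65 for MS4A1 at a pseudocount of 1 and 1.88 at 0.1. In those settings the log2 fold change of a gene shifted from the main fit by a median of −0.26 and −0.31.

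CD9 is a tetraspanin, a second kind of four-pass protein, which gathers integrins and other receptors in the membrane. The gene (ENSG00000010278) lies on chr12:6308881-6347437 on the plus strand of GRCh37. CD9 had 5393, 5108 and 5661 counts with DMSO and 3415, 3340 and 3730 with THZ1. After TMM scaling the treatments overlapped, at 447 CPM ± 29.6 (SD, n = 3) and 470 CPM ± 25.7 (n = 3). The log2 fold change was 0.07 (SE 0.07, 95% confidence interval −0.07 to 0.21, adjusted p = 0.337), so a change of more than 0.21 in either direction lay outside the interval. The direction depended on the scale. As unscaled shares of a library, CD9 took 464 to 507 counts per 1000000 with DMSO and 411 to 455 with THZ1, without overlap. The fit with library sizes alone accordingly gave −0.18 (adjusted p = 0.0121), the deposited FPKM values gave −0.20 (adjusted p = 0.0120 by limma), and upper quartile scaling gave 0.27 (adjusted p = 0.000818).

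Of 14 tested genes for tetraspanins and their partners, 8 (57.1%) were higher, 5 (35.7%) were lower and 1 did not pass (median log2 fold change 0.43). Among all genes tested, 43.5% were higher and 41.1% lower. TSPAN32 was the highest, at or under 3 counts in each DMSO-treated library and at 8.12 CPM ± 1.07 with THZ1, which makes it at least 32.6-fold higher against that floor. CD37, a tetraspanin of mature B cells, rose from 0.80 CPM ± 0.41 to 8.56 CPM ± 0.13 (log2 fold change 3.40), and CD151 rose from 26.6 CPM ± 3.37 to 126 CPM ± 1.48 (log2 fold change 2.24). CD81, the first of the list by mean CPM, rose by 0.36. TSPAN33 was the lowest, from 19.7 CPM ± 1.37 to 2.11 CPM ± 0.24 (log2 fold change −3.21), and CD53 fell by 0.89. Integrin β1 (ITGB1) rose by 0.51 and integrin α4 (ITGA4) fell by 0.52.

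CD34 is a sialomucin of hematopoietic progenitors. The gene (ENSG00000174059) spans chr1:208054317-208084747 on the minus strand of GRCh37. Few reads fell on CD34, with 10, 17 and 16 counts with DMSO and 12, 13 and 10 with THZ1. The treatments overlapped at 1.19 CPM ± 0.32 (SD, n = 3) and 1.57 CPM ± 0.23 (n = 3), and a difference was not detectable at this depth (log2 fold change 0.40, SE 0.38, 95% confidence interval −0.37 to 1.16, adjusted p = 0.326). Of 7 other progenitor markers tested, 6 (85.7%) were lower and 1 (14.3%) was higher, against 41.1% and 43.5% of all genes tested. Their median log2 fold change was −2.32, or −2.14 with the genes at or under 3 counts in a treatment set to their bound. DNTT, the terminal transferase of early lymphoid cells, fell from 455 CPM ± 23.9 to 103 CPM ± 11.8 (log2 fold change −2.14), and KIT, the stem cell factor receptor, was the lowest, from 7.32 CPM ± 1.09 to 0.72 CPM ± 0.20 (log2 fold change −3.33). The transcription factor gene ERG fell by 2.32. CD164, another sialomucin and first by the mean CPM of both treatments together, rose from 304 CPM ± 12.2 to 453 CPM ± 9.62 (log2 fold change 0.57).

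**Figure D2:**
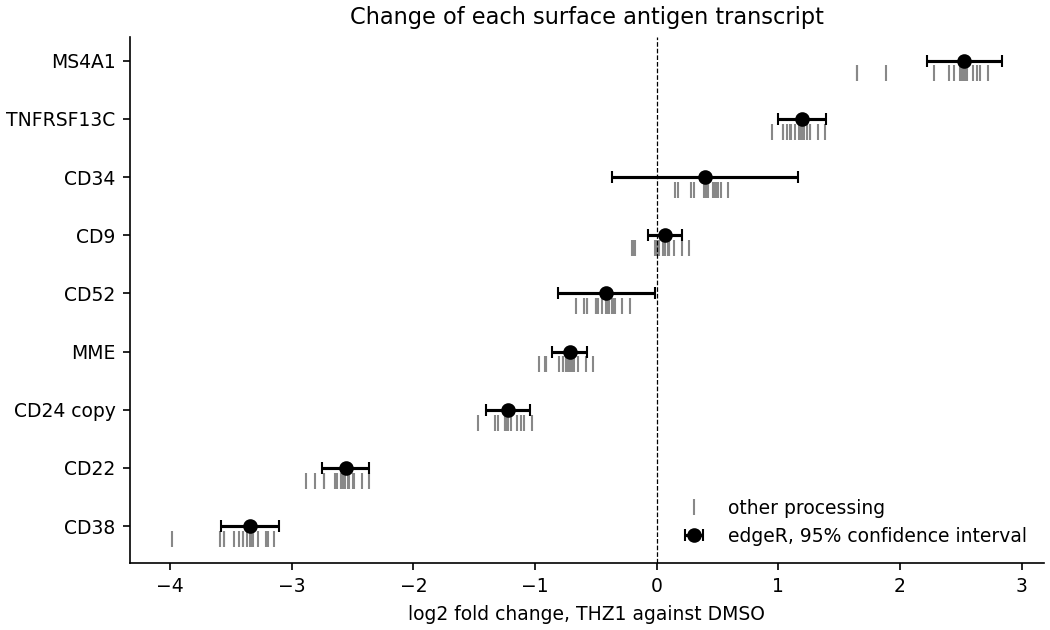
Log2 fold change of each surface antigen transcript, THZ1 against DMSO, with the edgeR estimate and its 95% confidence interval in black and the values of the other processing settings as grey ticks. CD38 (−3.34), CD22 (−2.56), the CD24 copy (−1.22) and MME (−0.72) lie below 0 under every setting drawn, TNFRSF13C (1.19) and MS4A1 (2.53) above 0, and the ticks of CD9 fall on both sides of 0.

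**Figure D3:**
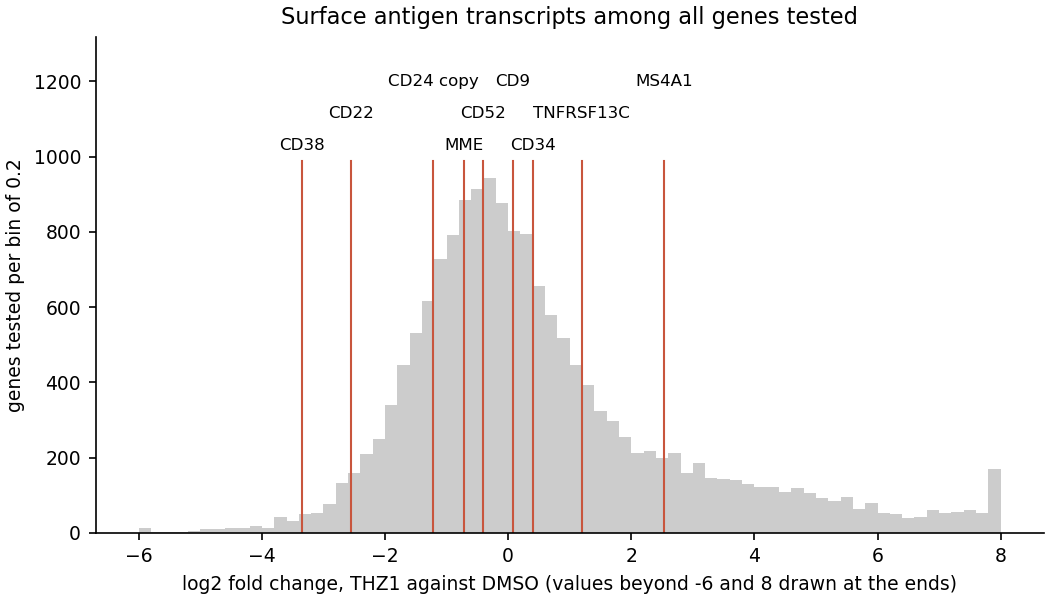
Histogram of the log2 fold changes of all 16622 genes tested, in bins of 0.2, with red lines at the surface antigen transcripts. CD38 and CD22 stand in the lower tail, with 1.15% and 3.12% of the genes below them, whereas 83.1% lie below MS4A1 and 51.1% below CD9.

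Levels of different genes were compared per length on the deposited FPKM values, taken back from the log2 scale, which hold 7 of the 9 antigens. With DMSO the order of mean levels was CD9 (314 FPKM), MME (169), CD22 (53.6), CD38 (38.1), CD52 (21.5), TNFRSF13C (19.2) and MS4A1 (3.45). The ranges of CD52 (20.1 to 23.6 FPKM) and TNFRSF13C (17.4 to 21.2 FPKM) overlapped, and no other neighbours did. With THZ1 the order was CD9 (273 FPKM), MME (89.1), TNFRSF13C (40.4), CD52 (14.2), MS4A1 (12.9), CD22 (7.23) and CD38 (2.35). Here the ranges of CD52 (12.7 to 15.8 FPKM) and MS4A1 (12.7 to 13.0 FPKM) overlapped, and no other neighbours did.

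CD9 and MME thus kept the first places of this set, whereas CD22 and CD38 moved from the middle to the end. Among the 16730 genes of the deposited table, CD22 went from rank 2483 to 9962 and CD38 from rank 3497 to 13408. TNFRSF13C went from rank 6010 to 3349 and MS4A1 from 11694 to 7731. CD9 stayed within the top 2.10% of genes and MME within the top 8.43%. On this scale the libraries of the treatments did not overlap in any of the 7 genes, CD9 included, against 82.6% of all genes of the table. The sorted values were nearly the same within a treatment (median differences of 0.0015 to 0.0017) but less so between treatments (0.087 to 0.0902). Whether scaling within each treatment enters this separation or the limma p-values was not tested. Counts per kilobase of exon gave the same order of these 7 genes in both treatments and placed CD34 last, at 0.13 CPM per kilobase with DMSO and 0.17 with THZ1.

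**Figure D4:**
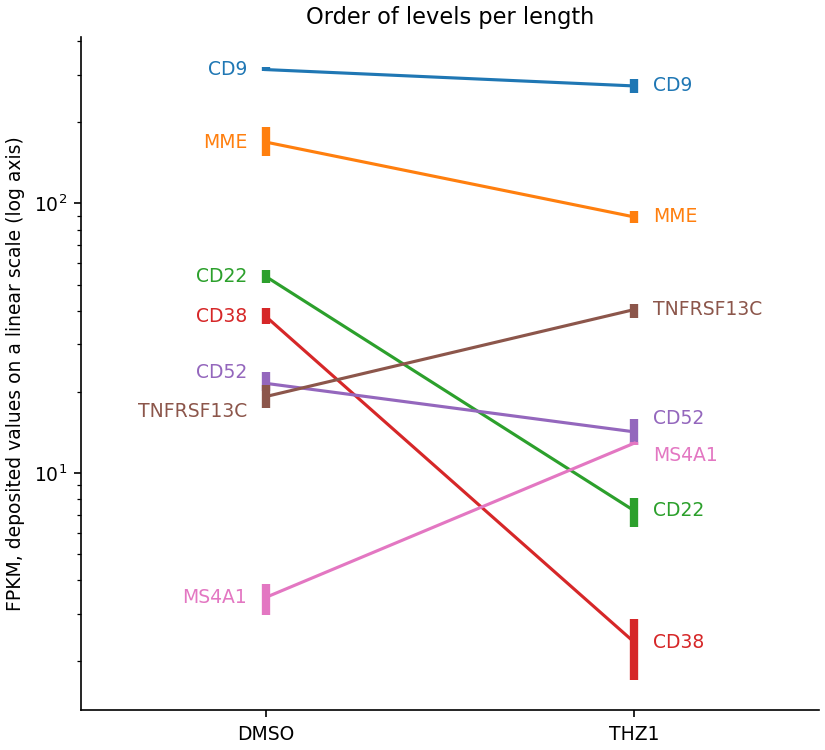
Mean FPKM (log axis) of 7 surface antigen genes with DMSO and with THZ1, joined by lines, with thick bars for the range of the 3 libraries. The lines of CD22 (53.6 to 7.23) and CD38 (38.1 to 2.35) cross those of TNFRSF13C (19.2 to 40.4), CD52 (21.5 to 14.2) and MS4A1 (3.45 to 12.9).

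Other antigens of B cell leukemia gave a mixed picture. Of 27 such genes 21 were tested, of which 7 (33.3%) were higher, 12 (57.1%) were lower and 2 did not pass (median log2 fold change −0.40). The shares over all genes tested were 43.5% higher and 41.1% lower. CD72, an inhibitory receptor, was at 50.1 CPM ± 4.90 (SD, n = 3) and 46.8 CPM ± 3.93 (n = 3) and did not pass (log2 fold change −0.10, adjusted p = 0.339 by edgeR). The signaling chains of the B cell receptor moved apart, with CD79A higher by 1.33 and CD79B lower by 0.74 on the log2 scale. The lowest was IL7R, the receptor of the growth factor IL-7, which fell from 334 CPM ± 33.7 to 20.2 CPM ± 1.61 (log2 fold change −4.05, adjusted p = 1.23e-26). CD37 was the highest (log2 fold change 3.40), and IL3RA (CD123), the interleukin-3 receptor, rose by 2.24. The chemokine receptor gene CXCR4, first by the mean CPM of both treatments together, rose from 286 CPM ± 12.8 to 518 CPM ± 16.2 (log2 fold change 0.86). CD47, the signal that holds off macrophages, fell by 0.42. FCER2 (CD23) rose from 0.75 CPM ± 0.13 to 5.02 CPM ± 0.25 (log2 fold change 2.73).

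Over the 107 tested genes of the 9 lists described around the antigens, 34 (31.8%) were higher and 59 (55.1%) were lower, where 43.5% and 41.1% of all genes were, and 14 did not pass. The median log2 fold change was −0.44, and the libraries of the treatments did not overlap in 94 genes (87.9%, against 84.7% of all genes). The deposited FPKM values gave 23 higher and 64 lower genes of 103 tested, where 35.9% of all genes of that table were higher and 44.6% lower by limma.

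**Figure D5:**
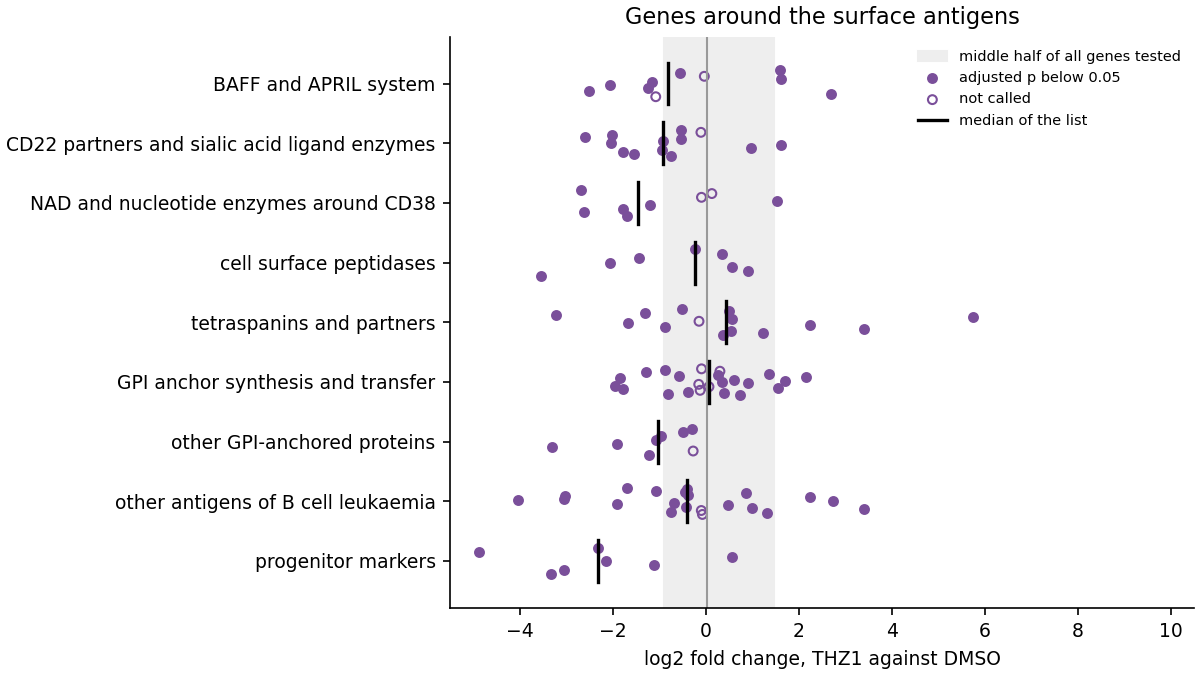
Log2 fold changes, THZ1 against DMSO, of the tested genes of 9 lists around the surface antigens, with filled points for an adjusted p below 0.05, open points for genes that did not pass, black lines for the list medians and a grey band between the quartiles of all genes tested (−0.90 and 1.46). The medians run from −2.32 for the progenitor markers to 0.43 for the tetraspanins and their partners.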

How the data were processed

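NALM6 cells were treated with DMSO or THZ1, with 3 RNA-SEQ libraries in each group as the labels give them. The authors filtered the reads, mapped them to GRCh37 with STAR and deposited raw counts per gene from htseq-count. The gene annotation and strand setting of the counting are not given in the sources used here. A second table that the authors deposited holds FPKM from RSEM on a log2 scale, read here as log2(FPKM + 1) and converted back, although the design had assumed linear FPKM. Its sorted values differed by a median of 0.0015 to 0.0017 between libraries of a treatment and by up to 0.0902 between treatments. Its columns of the authors' own comparison (p-values, log2 fold changes and FDR) were not used.

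Counts were filtered with filterByExpr (minimum count 10, minimum total 15), scaled by TMM and tested on the whole table with edgeR's two-sided quasi-likelihood test and Benjamini-Hochberg adjustment. A gene was called at an adjusted p below 0.05. Confidence intervals come from the fit. The genes named were all 9 antigens, the highest, lowest and first gene by mean CPM of each list (mean of 1 CPM or more), and the 2 nearest genes of each antigen that was called at a log2 fold change of 1 or more in size. Further genes of the lists that the text describes are outside this rule and were picked with their values in view, and a few results are not reported here. The antigens and lists were chosen with earlier results of these data known. Coordinates are from GENCODE on GRCh37, and the CD24 windows were searched with blastn 2.17.0. Alternatives were other scalings and filters, DESeq2, limma on FPKM, a replicate block and each library left out. On simulated counts of 16086 genes for THZ1 against DMSO, 200 of 200 changed genes and 10 unchanged genes were called. The changed genes were not of low level, and their median fitted size was 2 on the log2 scale. The simulation therefore cannot speak to small changes, low counts or a change of most genes. Libraries of a treatment differed by more than sampling noise (chi-square per gene of 1.79 to 9.53). R 4.3.3, edgeR 4.0.16, limma 3.58.1, DESeq2 1.42.0 and Python 3.11.15 were used.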

Additional observations from a re-analysis of the deposited data

How the results depend on the processing

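CD22, CD38, MME, MS4A1 and TNFRSF13C kept their direction and an adjusted p below 0.05 in 16 of 16 alternatives each. Their log2 fold changes ranged from −2.88 to −2.37 for CD22, −3.99 to −3.15 for CD38, −0.97 to −0.52 for MME, 1.65 to 2.72 for MS4A1 and 0.94 to 1.39 for TNFRSF13C. The CD24 copy ranged from −1.47 to −1.03 and was called in 13 of 13, and CD34 in 0 of 13 (unadjusted p = 0.300 by edgeR as reported). CD9 was lower with library sizes alone (−0.18, adjusted p = 0.0121) and with deposited FPKM (−0.20 with a pseudocount of 1, with a pseudocount of 0.1, and with a mean of at least 1), and higher and called with upper quartile factors (0.27) and with at least 10 counts in every library (0.20). In these settings the log2 fold change of a gene shifted from the main fit by a median of −0.25 (library sizes alone), −0.26, −0.31 and −0.26 (FPKM), 0.19 and 0.13. CD52 was called with library sizes alone (−0.66), no filter (−0.50), each FPKM setting (−0.57 to −0.60), and without DMSO replicate 1 (adjusted p = 0.0481), DMSO replicate 2 (0.0498) or THZ1 replicate 3 (0.0447), all by edgeR or limma. Hence 5 of 8 antigens were lower with library sizes alone and 5 of 7 in each FPKM setting, against 3 of 8, with CD9 and CD52 added. Among all genes, 7985 of 16622 were lower with library sizes alone, against 6826 of 16622 in the main fit. With FPKM, 7457 of 16730 genes were lower at a pseudocount of 1, 7407 of 16730 at 0.1, and 7383 of 16328 with a mean of at least 1. With a change of 1.5 or more required on the log2 scale, 1 antigen was higher, 13 listed genes were higher and 28 lower, and 4088 of all genes were higher and 2142 lower, since fewer genes reach that size. With the CD24 copy added as an antigen, an alternative chosen after seeing the data, 4 were lower. Leaving out 1 library gave 2 higher and 3 to 4 lower antigens, 35 higher and 57 to 60 lower listed genes, and 7295 to 7488 higher and 6681 to 6899 lower genes in all. Libraries with the same replicate number did not deviate together (correlations of −0.004, 0.00097 and 0.0206), so the replicate block rests on a number alone. With the replicate block 2 antigens were higher and 3 lower, 34 and 58 listed genes, and 7181 and 6786 of all genes. Depth limits CD34 and CD52 most, with at most 17 and 92 counts in a library.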

Other observations

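For the antigens that changed by 1 or more on the log2 scale, the genes with the most similar pattern were sought among 11097 genes, by the distance between their centred log2 CPM values over the 6 libraries. As the libraries form 2 groups, a small distance mainly means a like fold change, and no p is given. CD22 lay nearest to RCN1 (distance 0.129), a calcium-binding protein gene of the secretory pathway, and to ST6GAL1 (0.137). ST6GAL1 went from 103 to 17.1 CPM, and CD22 from 118 to 20.0 CPM. CD38 lay nearest to a Y_RNA gene (0.224), MS4A1 to MAMDC4 (0.123) and KAZALD1 (0.172), and TNFRSF13C to the ubiquitin-conjugating enzyme gene UBE2Q2 (0.147) and TSC22D1 (0.158). The CD24 copy lay nearest to the cullin gene CUL1 (0.0707) and to CD55 (0.107), another GPI-anchored protein.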
